A study of Mus musculus with 19 samples.

Results

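The RNA-sequencing libraries of CD11b+ brain cells from 10 *Park7* knockout (KO) mice, 5 treated with LPS and 5 with PBS, were compared across all genes to see which genes and pathways rise and fall 6 h after the injection. They are 10 of the 19 libraries of the series, and the other 9 came from wildtype littermates given the same treatments. *Park7* encodes DJ-1, a redox-sensitive protein whose loss causes an inherited, early-onset form of Parkinson's disease. All 10 mice were males of 3 to 4 months that carried a gene-trap insertion in *Park7*, which is present in every cell of the body and not only in microglia. The line was B6;129P2-*Park7*Gt(XE726)Byg/Mmucd, crossed back to C57BL/6NCrl mice over 10 or more generations. LPS, the endotoxin of the outer membrane of *E. coli*, was given once into the peritoneal cavity at 4 μg per g of body weight, and PBS was the vehicle. After 6 h the mice were perfused, the brain without its olfactory bulb and cerebellum was dissociated with enzymes, and the cells that bound magnetic beads against CD11b were collected. CD11b is a subunit of an integrin carried by microglia and also by border-associated macrophages, monocytes and neutrophils.

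LPS is bound by CD14 and by the TLR4 and MD-2 receptor complex. The adaptor MyD88 leads from there to NF-κB and AP-1 and so to cytokine genes, while the adaptor TRIF leads to IRF3, interferon-β and, through the interferon receptor, to the interferon-stimulated genes. Resting microglia are known by a set of genes, among them *P2ry12*, *Tmem119* and *Sall1*, that depends on signals of the healthy brain such as TGF-β. LPS injected into the periphery reaches the brain poorly, and circulating cytokines and the vessel wall are known to relay much of the stimulus.

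The values are counts of reads per gene. The total per library ranged from 15776431 to 18973244 counts in the 5 LPS libraries and from 16333434 to 22788884 in the 5 PBS libraries, so that 3 counts in a library correspond to 0.139 to 0.217 CPM (counts per 1000000 counts, with the size of each library adjusted by TMM). Levels below are in CPM, in the order of replicates 1 to 5, and a log2 fold change (log2FC) is LPS against PBS. A gene was called higher or lower where edgeR's quasi-likelihood test gave an adjusted p under 0.05 and the log2FC was at least 0.5 in size. Of the 18739 genes with enough counts to be tested, 3759 were called higher (20.1%) and 3564 lower (19%), and these shares are the background of every count of list members below. The median log2FC over all genes tested was -0.01, 885 genes were called higher by at least 4-fold, and 612 lower by as much. All 5 LPS values lay above all 5 PBS values for 16.2% of the genes tested and below them for 16.6%, and among the called genes this held for 2727 of those higher and 2785 of those lower.

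LPS replicates 1 and 5 stood apart from the other 3 LPS libraries. The summed level of 8 endothelial markers was 83.1 CPM in LPS replicate 5 and 458 to 878 CPM in the other LPS libraries, and *Ttr*, the thyroid hormone carrier made by the choroid plexus, was at 194 CPM there and at 3964 to 10674 CPM in the others. The summed level of 8 oligodendrocyte markers was 11561 CPM in LPS replicate 1 and 1229 to 4134 CPM in the other LPS libraries. Without both libraries, 3587 genes were called higher and 3414 lower. These included 3403 of the 3759 higher genes and 3119 of the 3564 lower genes above. Of the list counts below, those for ribosomal proteins, the cell cycle and Parkinson's disease genes moved by over 1.5 times without them, as did counts of 0 to 2 for CC chemokines, oxidative phosphorylation, immediate early genes, acute-phase genes and neutrophil markers, each by 1 gene. In bulk RNA, fewer cells of a type and less RNA per cell cannot be told apart.

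The residual reads of the trapped gene were counted first. *Park7* (chr4:150981579-150998903, minus strand) was at 1.69, 3.03, 5.38, 2.01 and 5.12 CPM after LPS and 1.84, 2.59, 0.457, 0.89 and 2.54 CPM after PBS. Its 10 values overlapped between the groups, and the log2FC was 1.04 (SE 0.38) with an adjusted p of 0.0296 in edgeR's quasi-likelihood test. *Park7* was called in 6 of the 10 fits that left out 1 KO library, and not without LPS replicate 3 or 5 (0.82 and 0.86) or PBS replicate 3 or 4 (0.82 and 0.88). In a fit of the KO libraries alone its log2FC was 1.07 and it was not called either, and in wildtype mice it was at 25.3 ± 3.91 CPM (SD, n = 5) after LPS and 22.3 ± 2.08 CPM (SD, n = 4) after PBS. The protein was not measured here.

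**Figure D1:**
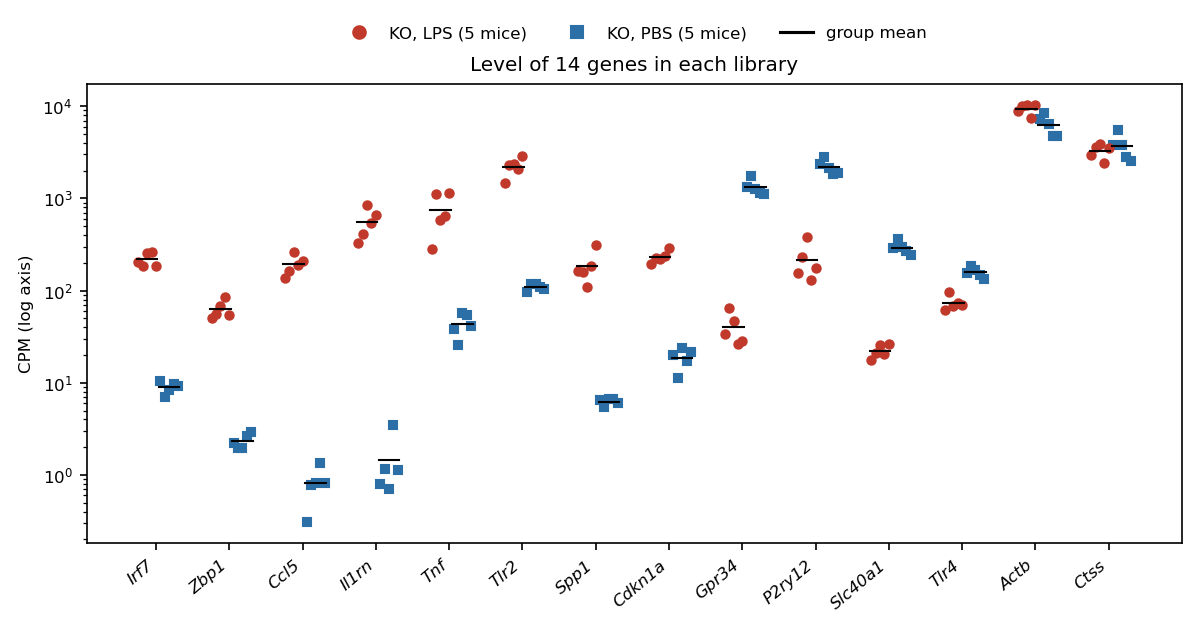
Level of 14 genes in each library, in CPM on a log axis, with circles for the 5 LPS libraries, squares for the 5 PBS libraries and a line at each group's mean. The circles of *Irf7*, *Zbp1*, *Ccl5*, *Il1rn*, *Tnf*, *Tlr2*, *Spp1* and *Cdkn1a* lie above the squares, those of *Gpr34*, *P2ry12*, *Slc40a1* and *Tlr4* lie below them, and those of *Actb* and *Ctss* overlap them.

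Genes of the receptor side of the LPS pathway were looked at next. *Cd14* (chr18:36858120-36859851, minus strand), which hands LPS to the receptor, was at 1223, 1685, 1741, 1511 and 2390.4 CPM after LPS and 177, 225, 199, 159 and 159 CPM after PBS, and its log2FC was 3.22 (SE 0.24). *Tlr4* (chr4:66745783-66849936, plus strand), the signalling receptor itself, was at 61.8, 97.4, 67.6, 73.8 and 69.5 CPM after LPS and 156, 183, 168, 148 and 133 CPM after PBS, with a log2FC of -1.09 (SE 0.21). Neither gene's groups overlapped, so the carrier of LPS rose while the messenger RNA of its receptor fell. *Cd180*, a TLR4-like protein of the cell surface, showed the largest fall of the list, from 197 to 297 CPM after PBS to 11.8 to 35.8 CPM after LPS (log2FC -3.45), and *Ly96*, which encodes MD-2, fell by 1.18 on the log2 scale. Of the 20 receptor and adaptor genes, 7 were called higher and 4 lower (median log2FC 0.25), beside 20.1% and 19% of all genes tested. *Irak3*, an inhibitor of the receptor's kinases, was the most raised (log2FC 3.28), followed by *Cd14* and *Myd88* (1.52), while *Tab2*, a member not called, had a log2FC of -0.06.

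Other pattern recognition receptors rose more often than they fell, with 13 of 19 called higher and 1 lower. *Tlr2*, the receptor for bacterial lipoproteins, was at 1486, 2313, 2337, 2064 and 2881 CPM after LPS and 97.7, 117, 118, 108 and 104 CPM after PBS, and each LPS value was more than 10 times each PBS value. *Msr1*, a scavenger receptor that takes up modified lipoproteins and bacteria, was at 473, 920.2, 512, 686 and 731 CPM after LPS and 11.6, 17.6, 18.3, 13.8 and 14.9 CPM after PBS (log2FC 5.44 (SE 0.24)). *Marco*, a related scavenger receptor, was counted 0, 0, 0, 3 and 0 times in the PBS libraries and was at 3.99 to 18.5 CPM in the LPS libraries. The ratio of its summed counts, each over the summed library sizes, was 390, with a 95% interval of 133 to 1900 that covers counting error only. Without PBS replicate 4, which held those 3 counts, the fitted log2FC of *Marco* went from 8.32 to 10.71. *Tlr5*, the flagellin receptor, was the member called lower (log2FC -1.06), and *Sting1*, not called, had a log2FC of -0.34. Without LPS replicate 5, 2 members were called lower.

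NF-κB subunits and their inhibitors rose together. All 5 subunit genes were called higher, led by *Nfkb2* (3.09) and *Relb* (2.80), the pair of the non-canonical pathway. Among 12 inhibitors and members of the A20 module, 10 were called higher and 0 lower, with a median log2FC of 2.48. *Nfkbia* (chr12:55535332-55539432, minus strand), the classical inhibitor IκBα that is itself an NF-κB target, was at 865, 1806, 1278, 1265 and 1975 CPM after LPS and 188, 159, 348, 261 and 264 CPM after PBS. *Tnfaip3*, which encodes the deubiquitinase A20, was at 1175, 2811, 2716, 2442 and 3662 CPM after LPS and 156, 115, 247, 172 and 209 CPM after PBS (log2FC 3.83 (SE 0.38)). The lowest LPS value of both genes came from replicate 1 and still lay above the highest PBS value. *Bcl3*, a nuclear partner of the NF-κB subunits, had the largest log2FC of the list (4.35). *Cyld*, another deubiquitinase of the list, had a log2FC of -0.24 and was not called.

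Cytokine genes rose nearly as a whole. 16 of the 17 tested members of the interleukin-1, TNF, IL-6 and IL-12 list were called higher and 0 lower (median log2FC 3.44), and *Csf2* had too few counts to be tested. *Il1rn* (chr2:24226865-24241506, plus strand), the antagonist of the interleukin-1 receptor, was at 328, 410.0, 848, 541 and 662 CPM after LPS and 0.798, 1.15, 0.711, 3.46 and 1.13 CPM after PBS, a log2FC of 8.57 (SE 0.60) with an adjusted p of 2.38e-09 in edgeR's quasi-likelihood test. *Il1b*, the agonist of the same receptor, was at 371, 1188, 668, 697 and 1043 CPM after LPS and 21.4, 24.2, 30.7, 27.2 and 45.5 CPM after PBS (log2FC 4.73 (SE 0.43)), and *Tnf* was at 281, 1112, 590.3, 644 and 1149.9 CPM after LPS and 38.4, 26, 57.2, 54.3 and 40.8 CPM after PBS (log2FC 4.12 (SE 0.34)). LPS replicate 1 was the lowest LPS library for all 3 genes, and no LPS value overlapped a PBS value. *Csf3*, which encodes the granulocyte growth factor G-CSF, was at 71.3, 81.4, 53.2, 94.4 and 28.8 CPM after LPS and 0, 0, 0.203, 0.0524 and 0.054 CPM after PBS, and *Il12b*, the p40 subunit of IL-12 and IL-23, was at 49.2, 136, 202, 80.9 and 231 CPM after LPS and 0.368, 0.37, 0.457, 0.943 and 0.054 CPM after PBS. The fitted log2FC was 9.87 for *Csf3*, which had 6 counts over the 5 PBS libraries and whose fold therefore depends on the prior count of the fit (10.93 without PBS replicate 3), and 8.29 for *Il12b*. *Il6* (log2FC 3.10) and *Il10* (3.19) also rose, and *Il18* had a log2FC of 0.17 and was not called. The log2FC of *Il1rn* was 9.18 without PBS replicate 4, its highest PBS value.

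Chemokine genes rose with them. 9 of 10 CC chemokines were called higher, led by *Ccl5* (chr11:83416602-83425942, minus strand), an attractant of T cells and monocytes, at 138, 164, 264, 189 and 210.3 CPM after LPS and 0.307, 0.785, 0.813, 1.36 and 0.81 CPM after PBS, with a log2FC of 7.86 (SE 0.45). *Ccl6* was the CC chemokine called lower, with a log2FC of -0.61, and it was not called without LPS replicate 4 (-0.51), without PBS replicate 2 (-0.44) or without LPS replicates 1 and 5. 8 of 9 CXC chemokines were called higher and 0 lower, with a median log2FC of 6.00. *Cxcl10*, the interferon-inducible ligand of CXCR3, was at 192, 447, 944, 356 and 558 CPM after LPS and 3.87, 1.48, 6.2, 7.59 and 4.38 CPM after PBS (log2FC 6.73 (SE 0.60)), and the neutrophil attractant *Cxcl1* was at 66.1, 105, 46.6, 130.3 and 45.4 CPM after LPS and 0.491, 0.878, 2.08, 1.05 and 1.57 CPM after PBS (log2FC 6.00 (SE 0.50)). *Cxcl3* and *Cxcl11* had the largest fitted changes of this list (7.11 and 6.89), which does not hold *Cxcl5*. *Cxcl3* and *Cxcl11* had 5 and 6 counts over the 5 PBS libraries, so their folds depend on the prior count of the fit. *Cxcl1* and *Cxcl10* were separated fully between the groups, and *Cxcl14* (log2FC 0.52) was the CXC chemokine not called.

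Of 16 receptors for these ligands and other attractants, 9 were called higher and 3 lower, against 20.1% and 19% of all genes tested. *Ccr7*, which guides leukocytes to lymphoid tissue, was at 21.9, 38.6, 56.9, 46 and 152 CPM after LPS and 0.123, 0.185, 0.762, 0.21 and 1.03 CPM after PBS, and LPS replicate 5 held the highest value (log2FC 7.07, and 6.44 without it). *Cxcr3*, the receptor of CXCL10, fell from 1.3 to 2.39 CPM after PBS to at most 0.0722 CPM after LPS, and *Cx3cr1*, the fractalkine receptor of microglia, fell by 1.05 on the log2 scale. The formyl peptide receptors *Fpr1* (5.00) and *Fpr2* (4.87) and the complement receptor *C5ar1* (3.26) rose.

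Interferon-stimulated genes of the antiviral list were all called higher, 31 of 31 tested, with log2FC values from 1.33 for *Ddx60* to 6.18 for *Oasl1* and a median of 3.44. All 5 LPS values of each of them lay above all 5 PBS values. *Isg15* (chr4:156283883-156285303, minus strand), a ubiquitin-like modifier, was at 40.1, 39.7, 58.6, 46.2 and 43.5 CPM after LPS and 2.46, 1.25, 1.93, 1.83 and 1.84 CPM after PBS (log2FC 4.62 (SE 0.24)). *Rsad2* (chr12:26492745-26506451, minus strand), which encodes the antiviral enzyme viperin, was at 203, 151, 698, 222 and 162 CPM after LPS and 5.65, 3.93, 4.22, 5.03 and 4.86 CPM after PBS, with the highest value in LPS replicate 3 (log2FC 5.92, and 5.29 without it). *Zbp1* (chr2:173033815-173060724, minus strand), a sensor of Z-form nucleic acid that can start necroptosis, was at 51, 55.8, 67.6, 86.1 and 54.4 CPM after LPS and 2.21, 1.94, 1.98, 2.62 and 2.92 CPM after PBS (log2FC 4.75 (SE 0.21), adjusted p 1.94e-11 in edgeR's quasi-likelihood test). *Ifit1* (chr19:34618271-34632174, plus strand), which binds foreign RNA caps, was at 129, 106, 225, 168 and 84.2 CPM after LPS and 9.51, 5.17, 4.12, 6.39 and 5.24 CPM after PBS. LPS replicate 3 or 4 was the highest library for these 4 genes, and replicate 5, where NF-κB inhibitors and immediate early genes were highest, was not.

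Among the regulators of this response, 10 of 14 interferon transcription factors and SOCS genes were called higher and 0 lower. *Irf7* (chr7:140842619-140846398, minus strand), the amplifier of interferon production, was at 203, 184, 258, 264 and 183 CPM after LPS and 10.4, 7.02, 8.33, 9.74 and 9.29 CPM after PBS, with a log2FC of 4.61 (SE 0.19) and an adjusted p of 1.1e-11 in edgeR's quasi-likelihood test. *Usp18* (3.62) and *Socs3* (3.60), both feedback inhibitors, rose, while the microglial factors *Irf8* (-0.38) and *Irf5* (-0.36) were not called. *Irf8* was called lower without LPS replicate 2 (-0.52), 1 member in place of 0. Of 3 genes for type I interferon and its receptor, *Ifnb1* had too few counts to be tested, and the receptor subunits *Ifnar1* (0.22) and *Ifnar2* (0.23) were not called. Guanylate-binding proteins and immunity-related GTPases, which attack vacuoles of intracellular pathogens, were called higher for 11 of 13 and lower for 0, led by *Gbp6* (5.25) and *Gbp2* (4.64), and *Irgm2* (0.07) and *Gbp8* (-0.59) were not called. *Tgtp1* and *Tgtp2* of this list are near-identical copies whose reads cannot be split with certainty.

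The 200 bases before the start of genes were searched for letters that the main transcription factors of this response are known to bind. The windows were taken from the GRCm39 genome at the start of each gene's canonical Ensembl transcript, for 14462 protein-coding genes tested, on both strands. The core of the interferon-stimulated response element (ISRE), spelled GAAANNGAAA, was in 2.43% of all windows, in 8.33% of the 648 genes called higher by at least 4-fold, in 1.99% of the 402 called lower by as much, and in 13 of the 31 antiviral genes (41.9%). A κB site for NF-κB, spelled GGGNNTTTCC, was in 1.32% of all windows, 5.09% of those called higher by at least 4-fold, 0.249% of those called lower by as much, 3 of 10 CC and 3 of 9 CXC chemokines. An AP-1 site, spelled TGANTCA, was in 3.67% of all windows, 9.72% of those called higher and 2.74% of those called lower by at least 4-fold. Windows of the 29 homeostatic microglia genes held no ISRE core and no κB site, and 1 held an AP-1 site. Of the 35 windows of lysosomal genes, which also fell more often than they rose, 4 held an ISRE core (11.4%), 1 a κB site and 4 an AP-1 site. A match shows only that these letters are in the window, and in the windows printed here no match of one motif overlaps a match of another.

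**Figure D2:**
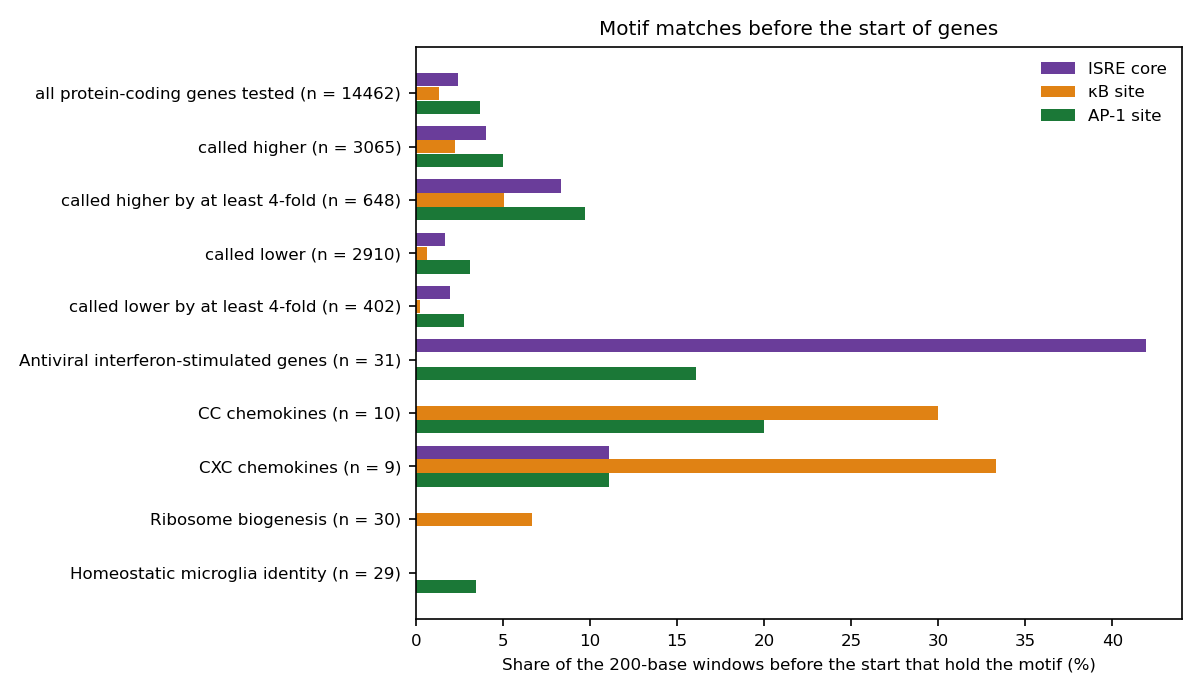
Share of 200-base windows before the start that hold an ISRE core, a κB site or an AP-1 site, in percent, for groups of genes with the number of windows in brackets. The ISRE core is in 41.9% of the antiviral windows against 2.43% of all windows, and the κB site is in 30.0% of CC and 33.3% of CXC chemokine windows against 1.32%.

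These 9 windows, chosen after the matches were seen, show the layouts behind those shares, with the matches in capitals and the rest in lower case, 5′ to 3′ on the gene's strand. In *Isg15*, 3 ISRE cores run into each other 29 to 50 bases before the start, *Zbp1* holds 2 such overlapping pairs, and *Ifit1* holds 2 separate cores. *Rsad2* holds an ISRE core and an AP-1 site, *Ccl5* and *Nfkbia* hold 1 κB site each, and *Cxcl1* and *Cxcl2* hold 2 each. *Gpr34*, which had the largest fall of the homeostatic microglia list, holds none of the 3 motifs.
Isg15, chr4:156285304-156285503, minus strand: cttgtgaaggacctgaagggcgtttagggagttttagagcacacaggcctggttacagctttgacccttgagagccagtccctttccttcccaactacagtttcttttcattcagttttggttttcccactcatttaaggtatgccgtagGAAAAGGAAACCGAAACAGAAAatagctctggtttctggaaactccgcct
Ifit1, chr19:34618071-34618270, plus strand: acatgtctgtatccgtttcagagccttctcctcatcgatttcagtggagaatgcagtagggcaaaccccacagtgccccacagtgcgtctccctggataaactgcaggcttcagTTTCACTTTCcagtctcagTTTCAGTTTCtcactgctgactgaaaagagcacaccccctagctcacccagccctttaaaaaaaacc
Zbp1, chr2:173060725-173060924, minus strand: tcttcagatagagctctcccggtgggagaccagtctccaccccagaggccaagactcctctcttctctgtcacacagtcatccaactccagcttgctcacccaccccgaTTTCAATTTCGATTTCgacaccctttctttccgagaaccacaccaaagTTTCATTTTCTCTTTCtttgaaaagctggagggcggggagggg
Rsad2, chr12:26506452-26506651, minus strand: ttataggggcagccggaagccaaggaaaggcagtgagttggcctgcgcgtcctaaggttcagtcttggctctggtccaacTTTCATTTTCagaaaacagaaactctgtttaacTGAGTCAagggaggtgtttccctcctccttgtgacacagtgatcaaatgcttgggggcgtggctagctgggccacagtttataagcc
Ccl5, chr11:83421346-83421545, minus strand: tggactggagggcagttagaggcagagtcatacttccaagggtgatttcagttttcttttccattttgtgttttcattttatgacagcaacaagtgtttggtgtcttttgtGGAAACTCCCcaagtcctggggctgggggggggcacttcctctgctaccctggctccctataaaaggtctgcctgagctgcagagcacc
Nfkbia, chr12:55539433-55539632, minus strand: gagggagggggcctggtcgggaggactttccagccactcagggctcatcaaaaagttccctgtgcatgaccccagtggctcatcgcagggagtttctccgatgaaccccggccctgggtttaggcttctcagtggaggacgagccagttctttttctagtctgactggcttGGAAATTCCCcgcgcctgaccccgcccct
Cxcl1, chr5:91038894-91039093, plus strand: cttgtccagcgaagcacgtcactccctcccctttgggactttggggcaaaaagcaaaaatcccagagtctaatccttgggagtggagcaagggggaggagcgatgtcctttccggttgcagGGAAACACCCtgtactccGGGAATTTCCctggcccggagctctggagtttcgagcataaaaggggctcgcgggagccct
Cxcl2, chr5:91051530-91051729, plus strand: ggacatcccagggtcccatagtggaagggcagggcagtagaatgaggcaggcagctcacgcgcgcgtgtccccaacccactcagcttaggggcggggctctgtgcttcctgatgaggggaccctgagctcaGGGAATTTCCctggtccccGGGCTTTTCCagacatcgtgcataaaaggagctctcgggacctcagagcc
Gpr34, chrX:13498236-13498435, plus strand: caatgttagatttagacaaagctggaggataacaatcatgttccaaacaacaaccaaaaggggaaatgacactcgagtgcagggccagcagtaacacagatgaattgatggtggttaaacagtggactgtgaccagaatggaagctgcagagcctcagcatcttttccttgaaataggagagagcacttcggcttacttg

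Genes of antigen presentation parted by class. Of 16 class I and immunoproteasome genes, 12 were called higher and 0 lower, led by their activator *Nlrc5* (log2FC 3.62), while *B2m*, the invariant light chain, had a log2FC of 0.44 and was not called, except without LPS replicate 1 (0.55) or 4 (0.51) or PBS replicate 2 (0.56) or without LPS replicates 1 and 5 together (0.53). *H2-K1*, a class I heavy chain, was at 617, 784, 769, 769 and 1102 CPM after LPS and 256, 268, 276, 249 and 276 CPM after PBS (log2FC 1.61 (SE 0.15)). Of 8 class II genes, 6 were called lower and 1 higher (median log2FC -1.27). *H2-Aa*, a class II chain, was at 19.8, 21.6, 42.4, 29.1 and 20.1 CPM after LPS and 66.8, 68.8, 87.5, 82.4 and 65.5 CPM after PBS (log2FC -1.48 (SE 0.20)), and *Cd74*, the invariant chain, was at 196, 281, 364, 265 and 446 CPM after LPS and 178, 173, 241, 215 and 173 CPM after PBS (log2FC 0.66 (SE 0.17)). The class II chain fell in every LPS library, whereas *Cd74* overlapped between the groups although it was called higher. Without LPS replicate 5 the log2FC of *Cd74* was 0.50 and it was not called, which left 0 class II genes called higher. The H2 genes form a family of similar sequences, so part of their reads may be shared.

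Costimulatory and checkpoint genes were all called, 7 higher and 6 lower of 13. *Cd40* (4.86), *Tnfrsf9* (4.43, and 3.71 without LPS replicate 3) and *Cd274* (4.35), the ligand PD-L1, rose. *Pdcd1lg2*, the ligand PD-L2, had no count in any PBS library and 0.239 to 1.12 CPM after LPS, at least 17.4-fold higher against a floor of 3 counts over the PBS group. *Tnfsf18* (-2.85, and -2.14 without PBS replicate 3), *Vsir* (-2.17), *Cd200r1* (-2.09) and *Sirpa* (-1.94), of which the last 3 encode inhibitory proteins, fell.

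Complement genes were called higher for 6 of 17 and lower for 1, with a median log2FC of 0.16, beside 20.1% and 19% of all genes tested. *C3*, the central component, was at 152, 214, 139, 274 and 150.4 CPM after LPS and 5.09, 5.5, 3.45, 17.5 and 8.54 CPM after PBS (log2FC 4.54 (SE 0.38)), and *Cfb*, its partner in the alternative pathway, rose (4.11, and 6.89 without PBS replicate 1, which held all 4 of its PBS counts). The genes of C1q, which microglia express highly at rest, were not called, with log2FC values of -0.08, 0.16 and -0.44 for *C1qa*, *C1qb* and *C1qc*. *C1qc* was called lower without LPS replicate 5, PBS replicate 4 or PBS replicate 5 (-0.51 each), with 2 complement genes then called lower. Inflammasome genes, a list of 9, were called higher for 3 and lower for 1, beside the same shares. *Nlrp3* was at 342, 661, 459, 601 and 1106 CPM after LPS and 108, 105, 133, 135 and 138 CPM after PBS, with the highest value in LPS replicate 5, *Mefv* (4.56) and *Casp4* (2.98), the sensor of intracellular LPS, rose, and *Gsdmd*, the pore former, had a log2FC of -0.19 and was not called.

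Enzymes of inflammatory metabolism were among the most raised. Of 9 tested genes for itaconate, nitric oxide and arginine, 7 were called higher and 1 lower. *Acod1*, which makes itaconate, was at 65.8, 133, 253, 166 and 198 CPM after LPS and 0.859, 1.29, 0.965, 3.4 and 6.86 CPM after PBS (log2FC 5.93 (SE 0.63), and 6.65 without PBS replicate 5), and *Nos2*, the inducible nitric oxide synthase, was at 10.6, 20, 30.7, 37.3 and 34.4 CPM after LPS and 2.88, 0.97, 1.12, 1.52 and 0.486 CPM after PBS (log2FC 4.26 (SE 0.61)). *Acod1* and *Nos2* were separated fully between the groups, and *Kynu*, an enzyme of tryptophan breakdown, fell by 1.88 on the log2 scale. For prostaglandins, 7 of 12 genes were called higher and 3 lower, against 20.1% and 19% of all genes tested. *Ptgs2* (cyclooxygenase-2) was at 245, 598, 216, 472 and 607 CPM after LPS and 11.8, 10.2, 16.7, 16.1 and 20.5 CPM after PBS, its partner *Ptges* rose (4.21), and *Hpgds* (-1.55) and *Ptgs1* (-1.27) fell. *Hpgd*, which breaks prostaglandins down, was also among the 15 protein-coding genes with the largest fall, at 21.1, 27.9, 12, 17.1 and 23.2 CPM after LPS and 300.0, 447, 319, 246 and 264 CPM after PBS.

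Many glycolysis genes rose, while nearly all genes of the respiratory chain were not called. 14 of 22 genes of glycolysis and its hypoxia-inducible regulators were called higher and 3 lower (median log2FC 0.83), against 2 higher and 1 lower of 45 nuclear genes of oxidative phosphorylation (median 0.06). *Pfkfb3*, which makes the activator of phosphofructokinase, was at 1666, 2311, 2361, 2761 and 3867 CPM after LPS and 256, 300.2, 349.5, 399 and 356 CPM after PBS (log2FC 2.96 (SE 0.28)), and *Ldha* (2.10), *Hif1a* (1.79) and the glucose carrier *Slc2a3* (1.59) rose. *Pdk1* (-1.43) and *Hk3* (-1.23) fell. Of 13 genes of the mitochondrial genome, 7 had enough counts to be tested, and 0 were called higher and 0 lower, with *mt-Co1* at a log2FC of 0.13. Without LPS replicate 1, 1 nuclear gene of oxidative phosphorylation was called higher. LPS replicate 3 had the lowest glycolysis median of the LPS libraries, 0.18 on the log2 scale over the PBS mean, against 0.93 to 1.20 in the other 4.

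Oxidative stress genes are of interest because DJ-1 is linked to the antioxidant factor NRF2. Of 28 NRF2 targets and antioxidant enzymes, 13 were called higher and 2 lower (median log2FC 0.39), and *Park7* itself is one of those called higher. *Slc7a11*, the cystine importer, was at 362, 405, 1013, 644 and 747 CPM after LPS and 48.8, 36.5, 39.7, 36.4 and 24.4 CPM after PBS (log2FC 4.09 (SE 0.49)), and *Sod2*, the mitochondrial superoxide dismutase, was at 495, 541, 626, 611 and 620.3 CPM after LPS and 80.8, 82.7, 69.6, 65.5 and 67.7 CPM after PBS (log2FC 2.98 (SE 0.24)). *Txnrd1* (2.87), *Gsr* (1.72) and *Hmox1* (1.21) rose as well. The named NRF2 targets *Gclm* (-0.49) and *Nqo1* (-0.81) were not called, although *Gclm* was called lower without LPS replicate 1 (-0.65), and *Cat* (-1.07), which removes peroxide, fell. Without LPS replicate 2, 1 gene of this list was called lower. Of the 6 subunits of the phagocyte NADPH oxidase, 4 were called higher and 0 lower, and *Cybb*, its catalytic subunit, was at 259.9, 398, 464, 496 and 477 CPM after LPS and 50.4, 65.7, 55.8, 76.8 and 50.8 CPM after PBS (log2FC 2.81 (SE 0.25)).

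Iron, zinc and acute-phase genes were called higher for 10 of 16 and lower for 2. *Saa3*, an acute-phase protein of macrophages, was at 257, 354, 309.6, 667 and 475 CPM after LPS and 0.0614, 0, 0.102, 1.73 and 0.054 CPM after PBS (log2FC 10.02 (SE 0.86), and 12.74 without PBS replicate 4), and *Steap4*, a metalloreductase, was at 172, 182, 136, 373 and 70 CPM after LPS and 1.17, 0.508, 1.02, 0.681 and 0.54 CPM after PBS (log2FC 7.90 (SE 0.60)). *Slc40a1* (chr1:45947211-45965683, minus strand), which encodes ferroportin, the iron exporter, was at 17.6, 20.9, 25.7, 20.4 and 26.5 CPM after LPS and 288, 359, 294, 266 and 244 CPM after PBS, a log2FC of -3.71 (SE 0.26) with an adjusted p of 1.96e-09 in edgeR's quasi-likelihood test. The exporter fell while the importer *Tfrc* (2.27), the transferrin receptor, and the storage subunit *Fth1* (1.85) rose, and the storage subunit *Ftl1* had a log2FC of 0.06 and was not called. The metallothionein *Mt2* (5.39, and 4.79 without LPS replicate 3) and the siderophore binder *Lcn2* (5.75, and 6.47 without PBS replicate 4) also rose. Without PBS replicate 2, 1 gene of this list was called lower. Cholesterol genes were called higher for 11 of 30 and lower for 5 (all genes tested, 20.1% and 19%). *Ch25h*, which makes 25-hydroxycholesterol, was at 62.8, 97.6, 107, 90.1 and 124 CPM after LPS and 1.17, 1.02, 0.965, 0.838 and 0.594 CPM after PBS (log2FC 6.71 (SE 0.53)), and the efflux carrier *Abcg1* (-1.75) fell while *Abca1* (1.18) rose.

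All 30 ribosome biogenesis genes were called higher, with log2FC values from 1.10 for *Pes1* to 2.84 for *Rrs1* and a median of 1.97, and in each of them the LPS values lay above the PBS values. *Npm1*, the nucleolar chaperone, was at 260.1, 412, 233, 269 and 376 CPM after LPS and 104, 152, 99.3, 89.3 and 89.9 CPM after PBS (log2FC 1.53 (SE 0.17)). Cytosolic ribosomal proteins moved less, with 22 of 38 called higher and 0 lower (median log2FC 0.55). Without PBS replicate 4, without PBS replicate 5 and without LPS replicates 1 and 5, 13 were called higher. Their groups overlapped for all but 7 members, and PBS replicates 4 and 5 had the lowest medians of all 10 libraries. 25 of 31 subunits of the constitutive proteasome were called higher and 0 lower (median 0.71), with *Psma6* at 1.10 and *Psmc3*, not called, at 0.08. Among 23 genes of the unfolded protein and integrated stress responses, 11 were called higher and 2 lower. The *Atf4* targets *Chac1* (4.23), *Asns* (2.94) and *Trib3* (2.42) led the list, *Eif2ak3* (-0.84), the kinase PERK, fell, and the chaperone *Hsp90b1* (-0.08) was not called. LPS replicate 5 had the highest *Chac1* level, 10.2 CPM against 2.23 to 3.59 CPM in the other LPS libraries, and the log2FC without it was 3.63.

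**Figure D3:**
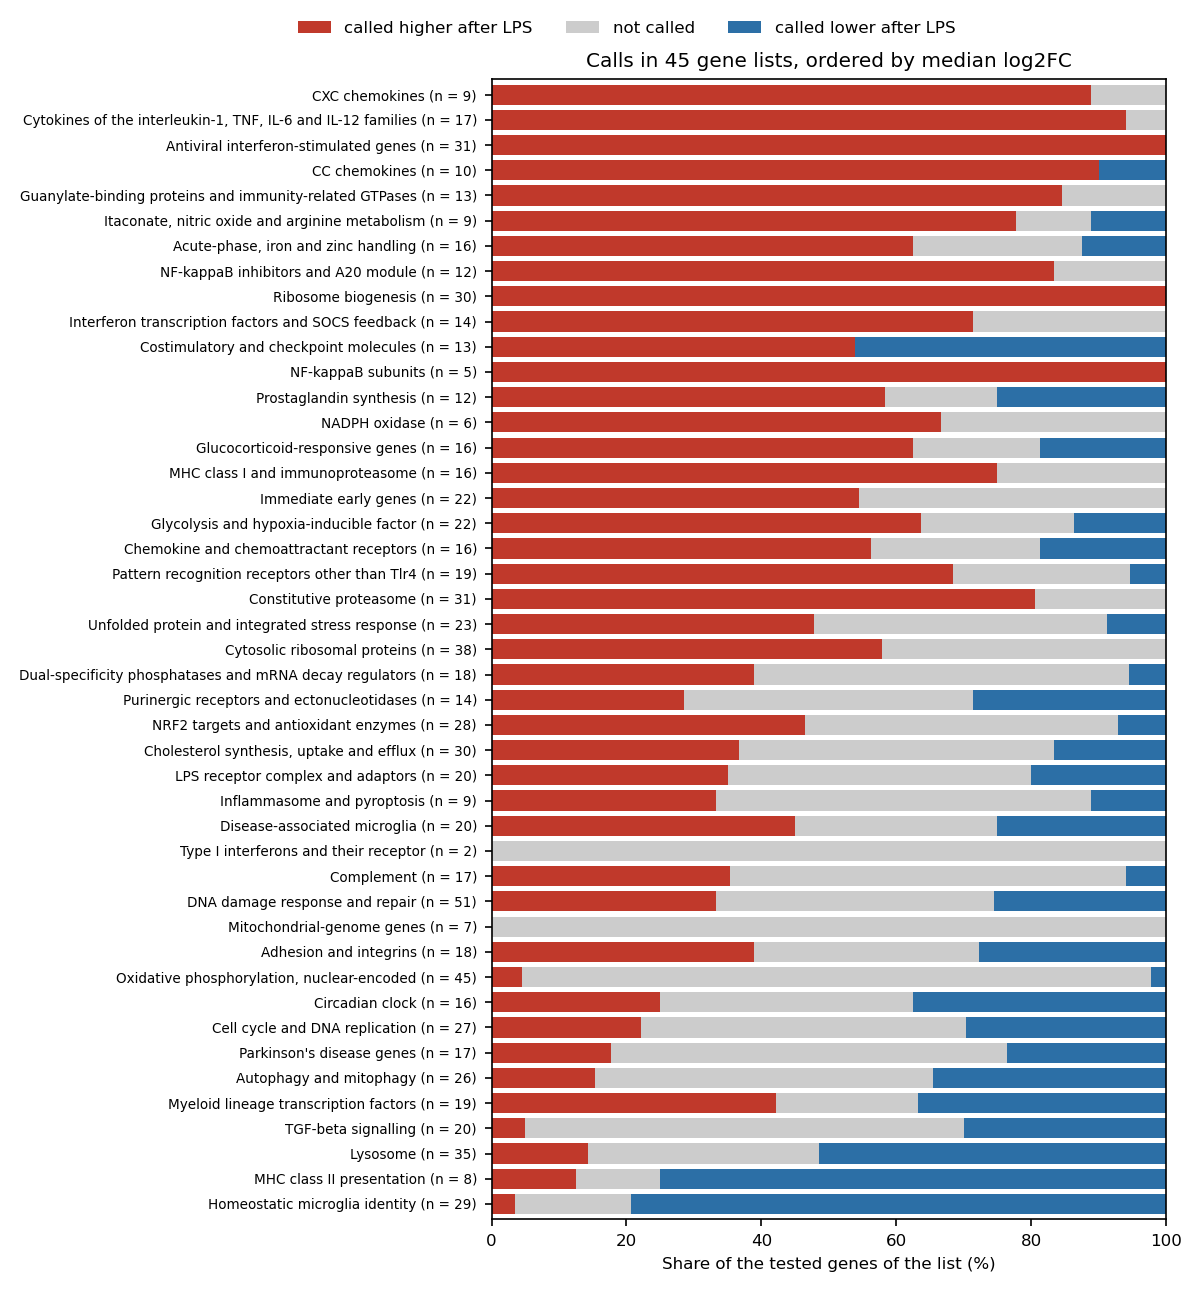
Share of the tested genes in each of 45 lists that were called higher (left), not called (middle) or called lower (right) after LPS, in percent, ordered by median log2FC. All antiviral, ribosome biogenesis and NF-κB subunit genes are called higher, and 23 of 29 homeostatic microglia genes are called lower.

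Genes that mark resting microglia fell. Of 29 tested homeostatic genes, 23 were called lower and 1 higher, with a median log2FC of -1.34, and 21 of the 23 had every LPS value below every PBS value. *Gpr34* (chrX:13489625-13507116, plus strand), a lysophosphatidylserine receptor, was at 33.5, 64.7, 46.4, 26.1 and 28.7 CPM after LPS and 1322, 1739, 1263, 1141 and 1113 CPM after PBS, the largest fall of the list (log2FC -5.04 (SE 0.42), adjusted p 1.54e-08 in edgeR's quasi-likelihood test). *P2ry12* (chr3:59123682-59170429, minus strand), the ADP receptor that steers microglial processes, was at 154, 230.1, 382, 130.0 and 175 CPM after LPS and 2347, 2808, 2121, 1844 and 1895 CPM after PBS (log2FC -3.36 (SE 0.34)). *Sall1*, a transcription factor of microglial identity, was at 173, 254, 186, 162 and 201 CPM after LPS and 966, 999.6, 955, 874 and 912 CPM after PBS (log2FC -2.27 (SE 0.22)), and *Tmem119*, a surface marker of unknown function, was at 1009, 1270.0, 487, 811 and 1194 CPM after LPS and 2363, 2762, 2180.0, 2157 and 1878 CPM after PBS (log2FC -1.25 (SE 0.23)). The 4 genes fell to different depths, and *Csf1r*, the growth factor receptor that microglia need to survive, fell by 0.62 on the log2 scale. *Egr1*, an immediate early gene of the list, was the member called higher (1.55), and *Jun* (-0.15) and *Tgfbr2* (-0.24) were not called. *Jun* was called lower without LPS replicate 5 (-0.61). The 9 tested microglia markers used to check the cell type are all members of this list.

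Genes of TGF-β signalling, on which that identity depends, were called lower for 6 of 20 and higher for 1, beside 19% lower and 20.1% higher of all genes tested. The receptor *Tgfbr1* (-1.59), the target *Pmepa1* (-1.85) and the inhibitory factors *Smad6* (-1.21) and *Smad7* (-0.78) fell, *Tgif1* (1.17), a repressor of the pathway, rose, and *Tgfb1* (-0.49) was not called. *Tgfb1* was called lower without LPS replicate 3 (-0.62), LPS replicate 5 (-0.55) or PBS replicate 4 (-0.50), and 2 genes of the list were called higher without LPS replicate 1. Disease-associated microglia genes, a set known from models of neurodegeneration, were called higher for 9 of 20 and lower for 5, beside the same shares. *Spp1*, which encodes osteopontin, was at 165, 158, 109, 184 and 311 CPM after LPS and 6.51, 5.5, 6.6, 6.65 and 6 CPM after PBS (log2FC 4.89 (SE 0.23)), while *Igf1*, insulin-like growth factor 1, was at 1.18, 0.914, 2.39, 2.07 and 1.52 CPM after LPS and 23.3, 32.6, 25.2, 26.2 and 25.6 CPM after PBS (log2FC -4.04 (SE 0.31)). *Lilrb4a* (3.01) rose, *Timp2* (-1.83) and *Apoe* (-0.89) fell, and *Clec7a* (0.03), *Itgax* (0.14) and *Axl* (0.30) were not called. *Trem2*, the receptor this state depends on and a member of the homeostatic list, fell by 1.55 on the log2 scale.

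Lysosomal genes fell more often than they rose, 18 against 5 of 35 (median log2FC -0.51). *Ctsf*, a cysteine protease, was at 68.7, 66.3, 82.4, 49.2 and 68.3 CPM after LPS and 189.5, 228, 189.9, 175 and 158 CPM after PBS (log2FC -1.49 (SE 0.15)), and *Lipa* (-1.35) and the regulator *Tfeb* (-0.90) fell. *Gla* (1.86, and 0.90 without LPS replicate 5) and *Ctsc* (1.32) rose, and *Ctss*, the protease cathepsin S, was at 2991, 3642, 3901, 2397 and 3564 CPM after LPS and 3803, 5548, 3770.0, 2805 and 2576 CPM after PBS with a log2FC of -0.17 (SE 0.22) and was not called. Without LPS replicate 2 or 5 or PBS replicate 4 or 5, 3 lysosomal genes were called higher. Autophagy and mitophagy genes were called lower for 9 of 26 and higher for 4 (median log2FC -0.17), beside 19% lower and 20.1% higher of all genes tested. *Calcoco1* (-2.26), *Ulk2* (-1.66) and *Ulk1* (-1.13) fell, the receptors *Optn* (1.02) and *Sqstm1* (0.75) rose, and *Map1lc3b* (0.01) was not called.

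Purinergic genes were called higher for 4 and lower for 4 of 14, where the shares over all genes tested were 20.1% and 19%. *P2ry2*, a UTP and ATP receptor, was at 68.7, 73, 178, 69.9 and 116 CPM after LPS and 2.82, 1.66, 3.15, 3.35 and 3.57 CPM after PBS (log2FC 5.12 (SE 0.32)), while *P2ry12*, *P2ry13* (-1.41), *P2rx7* (-1.77) and the ectonucleotidase *Entpd1* (-1.34) fell. The adenosine receptor *Adora2a* (2.54) rose, and *P2ry6* (0.49) was not called, although it was without LPS replicate 1, 2 or 4 or PBS replicate 2 or 3 (0.51 to 0.61), in the KO libraries alone (0.51) and without ribosomal and mitochondrial genes (0.50). Adhesion genes were called higher for 7 and lower for 5 of 18, beside the same shares. *Cd44* (3.91), *Itgal* (3.25) and *Icam1* (2.64) rose, and *Itga6* (-2.18) and *Selplg* (-1.64) fell. *Itgam*, which encodes CD11b itself, the protein used for the sort, had a log2FC of 0.07 and was not called.

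Of 19 transcription factors of the myeloid lineage, 8 were called higher and 7 lower, against 20.1% and 19% of all genes tested. *Batf* (2.95), *Cebpb* (2.59) and *Ets2* (2.06) rose, *Sall1*, *Fli1* (-1.74), *Maf* (-1.61) and *Mef2c* (-1.34) fell. Immediate early genes, which respond to stimulation within minutes and also to tissue dissociation, were called higher for 12 of 22 and lower for 0. *Fosl1* (3.77, and 4.43 without PBS replicate 2) and *Maff* (3.14) led, and *Fosb* was at 68.8, 70.2, 97.6, 190.0 and 954 CPM after LPS and 171, 107, 165, 175 and 191 CPM after PBS. LPS replicate 5 alone raised the mean of *Fosb*, whose log2FC was 0.77 with all libraries and -0.60 without that one. The median of the list in that library was 2.005 on the log2 scale over the PBS mean, against -0.01 to 0.79 in the other LPS libraries. The part of LPS replicate 5 in the calls of this list was not tested beyond the fits that left it out. Without that library alone, 2 members were called lower. Of 18 dual-specificity phosphatases and regulators of mRNA decay, 7 were called higher and 1 lower, beside the same shares, with *Dusp2* (3.98), *Dusp16* (2.21) and *Dusp5* (2.13) raised, *Dusp7* (-1.21) lowered and *Btg2* (0.19) not called.

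Genes known to respond to glucocorticoids, which rise in the blood after LPS, were called higher for 10 of 16 and lower for 3. *Zbtb16* (2.76) and *Fkbp5* (2.22) rose, *Cdkn1c* (-1.35) and *Cd163* (-1.17) fell, and *Nr3c1*, the receptor, had a log2FC of 0.46 and was not called, except without LPS replicate 1 (0.54) or PBS replicate 2 (0.52). *Lcn2* and *Il1r2* of this list (5.75 and 3.79) also respond to cytokines. Clock genes were called higher for 4 and lower for 6 of 16 (median log2FC 0.046), beside 20.1% and 19% of all genes tested. The output factors *Dbp* (-2.48), *Hlf* (-1.59) and *Tef* (-1.09) and the repressors *Nr1d1* (-0.92) and *Nr1d2* (-1.27) fell, *Per2* (1.65) and *Cry1* (1.42) rose, and *Clock* (0.05) and *Bmal1* (0.25) were not called. The hour of day of the injections is not given in the sources used here.

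Of the DNA damage list, which bears on a theme of the study, 17 of 51 were called higher and 13 lower. The shares over all genes tested were 20.1% and 19%, and the list's median log2FC was 0.16 in KO and 0.23 in wildtype mice. *Cdkn1a*, the p53 target p21, was at 196, 227, 218, 234 and 293 CPM after LPS and 20, 11.2, 24, 17.1 and 21.7 CPM after PBS (log2FC 3.64 (SE 0.21), adjusted p 2.81e-10 in edgeR's quasi-likelihood test), and *Gadd45b*, a stress sensor that NF-κB also induces, was at 76.6, 156, 127, 120.1 and 325 CPM after LPS and 10.6, 6.61, 16.3, 12.8 and 14.5 CPM after PBS (log2FC 3.72 (SE 0.37)). *Sesn2* (2.07) and *Pmaip1* (1.61) rose as well. Of the repair and checkpoint genes, *Fancd2*, of interstrand crosslink repair, was at 1.29, 1.03, 1.67, 1.51 and 1.15 CPM after LPS and 5.83, 8.5, 6.76, 6.65 and 6.05 CPM after PBS (log2FC -2.33 (SE 0.21)). *Lig1* (-1.49), *Chek2* (-1.44) and *Ddb2* (-1.42) also fell. *Atm* (0.06) and *Trp53bp1* (-0.15) were not called. Cell cycle genes were called higher for 6 and lower for 8 of 27 (median -0.049), beside those same shares. *Cdk6* (1.38) and *Uhrf1* (1.11) rose, *Cdkn2c* (-1.18), *E2f1* (-1.07) and *Ccnd1* (-1.02) fell, and *Top2a* (0.25) was not called. Without LPS replicate 5, 3 members were called higher, and without LPS replicates 1 and 5, 3 were called higher and 6 lower. *Kif2c*, a mitotic kinesin outside this list, was among the 10 genes with the smallest p, at 37, 39.2, 50.3, 26.2 and 48.7 CPM after LPS and 1.04, 1.15, 1.47, 0.943 and 1.35 CPM after PBS (log2FC 5.07 (SE 0.21)).

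Genes linked to Parkinson's disease by inheritance were called higher for 3 of 17 and lower for 4, beside 20.1% called higher and 19% lower of all genes tested. *Rab32* was at 153, 196, 83, 140.3 and 196 CPM after LPS and 45.5, 61.2, 45.5, 41.9 and 39.3 CPM after PBS (log2FC 1.72 (SE 0.19)), and *Synj1* (0.59) and the residual *Park7* reads were the other members called higher. *Lrrk2*, a kinase that acts on Rab proteins, was at 20.7, 13.4, 17, 26.8 and 8.01 CPM after LPS and 22.8, 19.3, 33.8, 43.3 and 54.1 CPM after PBS, with overlapping groups and a log2FC of -1.01 (SE 0.36), and it was not called without LPS replicate 2 or 5 (-0.93 and -0.83) or PBS replicate 4 or 5 (-0.92 and -0.78). *Tmem175* (-1.56) and *Atp13a2* (-1.46) fell, and *Vps35* (-0.07) and *Pink1* (-0.52) were not called, although *Pink1* was called lower without LPS replicate 1 (-0.96). Without LPS replicates 1 and 5, 2 members were called lower, and *Lrrk2* was not among them.

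By size of change, 15 protein-coding genes per direction led the called genes at a mean of at least 5 CPM with no overlap between the groups. Beside the cytokines and receptors above, those higher included *Mmp3*, a matrix protease, *Ifi205* (8.11), *Cxcl5*, *Serpina3f* (7.64), *Slfn4* (7.22), the coagulation factor *F10* (7.19) and *Plet1* (6.99). *Mmp3* was at 13.2, 56.4, 1.14, 44.2 and 2.96 CPM after LPS and 0, 0, 0, 0.0524 and 0 CPM after PBS, with 1 count over the 5 PBS libraries, a log2FC of 10.37 (11.63 without PBS replicate 4 and 9.75 without LPS replicate 2) and a ratio of summed counts with a 95% interval of 423 to 93100. *Cxcl5*, a neutrophil attractant, was at 10.3, 26.7, 1.79, 34.2 and 2.82 CPM after LPS and 0.184, 0.0462, 0.0508, 0.0524 and 0 CPM after PBS (log2FC 7.74, and 8.39 without PBS replicate 1). LPS replicates 3 and 5 held far less of both genes than replicates 2 and 4. Those lower were led by *Adamts16*, a metalloprotease, at 0.844, 0.572, 0.957, 0.336 and 0.0722 CPM after LPS and 25.9, 34.7, 30.2, 30.5 and 49.5 CPM after PBS (log2FC -5.90 (SE 0.41)), and included *Mycl* (-4.29), the potassium channel gene *Kcnk12* (-4.09), *Tspan18* (-4.20), *Abcg3* (-4.31) and the orphan receptor gene *Gpr165* (-4.07). *Slco1a4*, an organic anion carrier of brain endothelium, was at 17.5, 6.86, 12.4, 11.8 and 0.577 CPM after LPS and 248, 127, 129.9, 130.1 and 143 CPM after PBS, and LPS replicate 5, the library low in endothelial markers, held the lowest value.

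Genes were also ranked by p, which favours those with little spread between mice. *Gpr65*, a proton-sensing receptor, was at 110.3, 155, 128, 129 and 132 CPM after LPS and 7, 10.3, 11.3, 8.75 and 8.16 CPM after PBS (log2FC 3.84 (SE 0.15), adjusted p 7.08e-12 in edgeR's quasi-likelihood test), the smallest p of all genes. *Cd244a* (5.29), *Mmp19* (4.33) and *Tma16* (2.71) followed the genes of this group named above. *Klhdc8b* was at 17, 13.1, 10.8, 15.8 and 15.2 CPM after LPS and 62.9, 73.3, 63.8, 70.8 and 70.2 CPM after PBS (log2FC -2.24 (SE 0.12)), the smallest p of the genes called lower. *Ypel3* (-3.23), *Sema4g* (-3.58), *Ralgps2* (-2.01), *Plekhg5* (-2.48), *Map3k9* (-1.93), *Ago4* (-2.77), *Dhrs3* (-2.79), *Cbfa2t3* (-3.94) and *Chst8* (-3.86) were the others. None of these genes' groups overlapped.

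**Figure D4:**
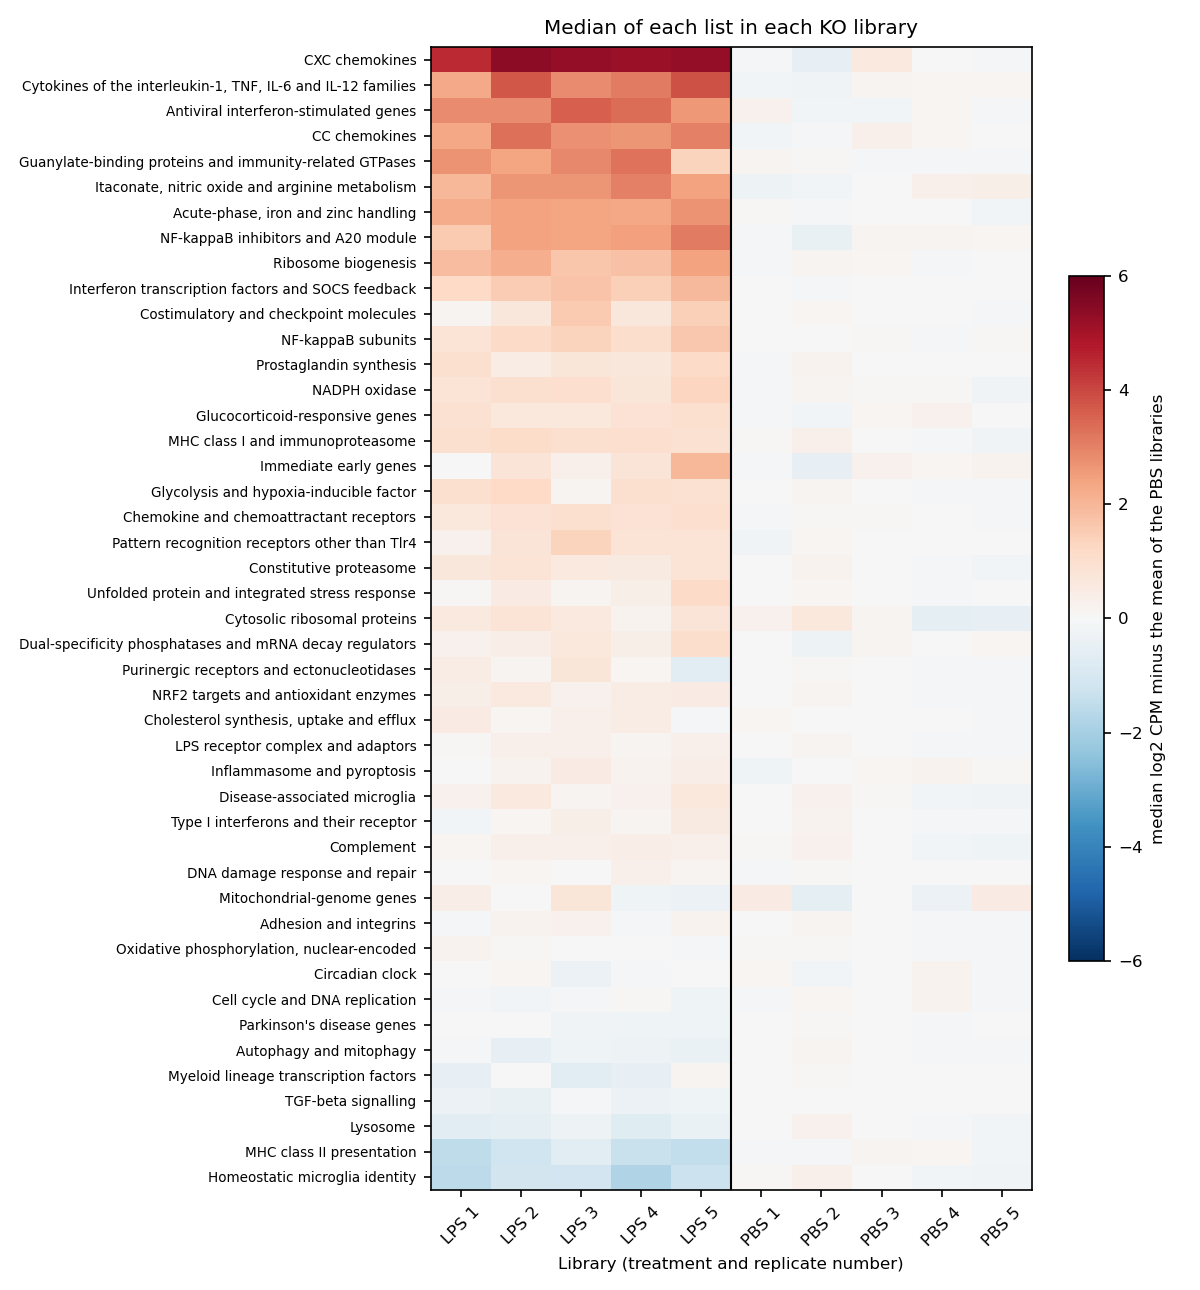
Median over the members of each of 45 lists, as log2 CPM minus the mean of the 5 PBS libraries, for each KO library. The LPS columns differ from the PBS columns in the top and bottom rows in all 5 mice. LPS replicate 5 has the highest value of the immediate early genes, 2.005 on the log2 scale.

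Markers of other cells were summed in each library beside these results. The sum of 9 microglia markers, all called lower, was 10926 to 16955 CPM after LPS and 26763 to 40571 CPM after PBS, and that of 6 pan-myeloid markers, of which 2 were called higher and 1 lower, was 1508 to 2173 CPM after LPS and 1333 to 2019 CPM after PBS. The first fell in all 5 LPS libraries and the second overlapped between the groups. Inflammatory monocyte markers rose for 9 of 10, with a sum of 531 to 1129 CPM after LPS and 165 to 329 CPM after PBS, led by *F10*, *Plac8* (5.49), *Hp* (5.40) and *Ms4a4c* (5.31). *Ly6c2*, the marker of inflammatory monocytes, was at 18.3, 24.1, 45.6, 52.5 and 20.3 CPM after LPS and 0.246, 0.508, 0.152, 3.25 and 1.13 CPM after PBS (log2FC 4.91, and 5.95 without PBS replicate 4), and *Ccr2*, their chemokine receptor, rose by 0.75 on the log2 scale. Several of these genes are also induced by LPS in macrophages, and the part of arriving monocytes in the genes called higher was not tested. Neutrophil markers summed to 340.4 to 881 CPM after LPS and 429.9 to 743 CPM after PBS, with 7 called higher and 2 lower of 14. *S100a8* (2.03, and 2.66 without PBS replicate 4), *Cxcr2* (4.00) and *Mmp8* (3.19) rose, *Ly6g* (0.28) was not called, and *Mpo* was called lower with 11.2 CPM in PBS replicate 4 and at most 1.43 CPM in the other 9 libraries. Without that library its log2FC was -0.82, and it was not called there nor without LPS replicate 1, 2 or 5. Leaving out 1 library lowered the count of neutrophil markers called lower to 0 without LPS replicate 1 and to 1 without LPS replicate 2 or 5 or PBS replicate 4 or 5.

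Markers of border-associated macrophages summed to 341 to 627 CPM after LPS and 529 to 712 CPM after PBS, with 6 called lower, 1 higher (*Siglec1*, log2FC 1.54), and *Mrc1* (-0.30) was among those not called. T and NK cell markers summed to 5.62 to 12.9 CPM after LPS and 9.62 to 11.2 CPM after PBS, with *Cd3d*, *Cd3e*, *Cd3g* and *Cd8a* at no more than 3 counts in every KO library, 4 of 7 tested called higher and 1 lower. B cell markers summed to 1.62 to 2.74 CPM after LPS and 8.84 to 11.2 CPM after PBS, and *Cd79b* was the member tested and fell (-2.66). Oligodendrocyte markers summed to 1229 to 11561 CPM after LPS and 1137 to 7716 CPM after PBS, with 0 of 8 called higher and 0 lower. Astrocyte markers summed to 436 to 5213 CPM after LPS and 629 to 2821 CPM after PBS, with 1 of 8 called higher (*Gfap*, 1.66, not called without LPS replicate 1, 1.30, or PBS replicate 5, 1.48) and 0 lower, and neuron markers to 34.5 to 297 CPM after LPS and 55.2 to 191 CPM after PBS, with 1 of 8 called higher (*Tubb3*, 1.66) and 0 lower (1 without LPS replicate 1). Endothelial markers summed to 83.1 to 878 CPM after LPS and 653 to 1239 CPM after PBS, with 4 of 8 called lower and 1 higher, and 0 were called higher in 7 of the 10 fits without 1 library, those without LPS replicate 1, 3 or 4 or PBS replicate 2, 3, 4 or 5. *Tek*, the angiopoietin receptor of endothelium, was at 8.32, 4.46, 5.74, 3.24 and 0.794 CPM after LPS and 59, 35.5, 30.1, 30.9 and 42.8 CPM after PBS. RNA of brain vessels and other brain cells was therefore present in all 10 libraries, and its part in single genes was not tested.

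**Figure D5:**
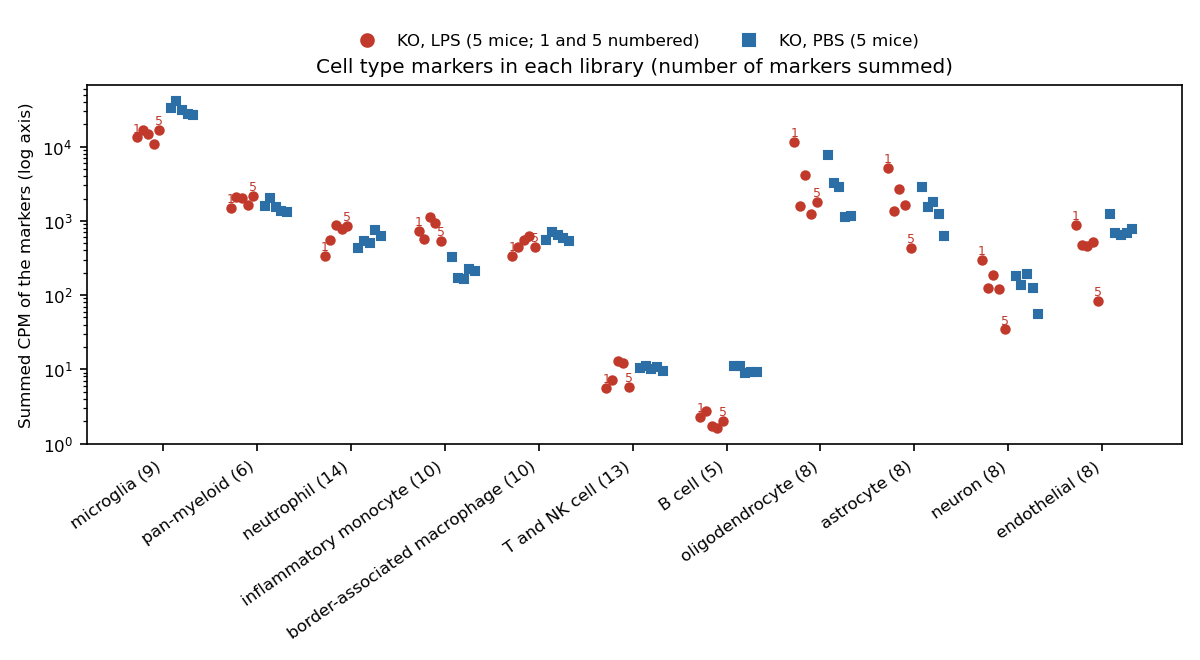
Summed level of the markers of 11 cell types in each KO library, in CPM on a log axis, with LPS replicates 1 and 5 numbered. Microglia markers sum lower in every LPS library than in any PBS library, inflammatory monocyte markers higher, and LPS replicate 5 has the lowest endothelial sum at 83.1 CPM.

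The KO response was set against that of wildtype littermates by the interaction of genotype and treatment in the same fit, over all 19 libraries. No gene passed an adjusted p under 0.05 in edgeR's quasi-likelihood test, and DESeq2 called 0 genes. An unadjusted p under 0.05 was reached by 180 of 18739, fewer than the share of 0.05 expected if no gene differed. An effect that misses the adjusted threshold is not shown to be equal in the 2 genotypes. The median log2FC in KO and wildtype was 3.44 and 3.60 for the antiviral genes, 3.44 and 3.62 for the cytokines, 6.00 and 4.79 for the CXC chemokines, -1.34 and -1.48 for the homeostatic genes and 1.97 and 1.84 for ribosome biogenesis. Differences between these medians were not tested, and 1 of the 9 CXC chemokines had an unadjusted interaction p under 0.05. For *Irf7* the log2FC was 4.61 in KO and 4.74 in wildtype, for *Tnf* 4.12 and 3.71, for *Cdkn1a* 3.64 and 3.27 and for *Gpr34* -5.04 and -5.09.

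Of the genes with the smallest interaction p, the long noncoding RNA *Rab10os* was at 27.6 ± 5.03 CPM after LPS and 21.6 ± 3.91 CPM after PBS in KO (SD, n = 5 each) and at 22.9 ± 1.18 CPM (SD, n = 5) after LPS and 30.9 ± 3.6 CPM (SD, n = 4) after PBS in wildtype mice. Its log2FC was 0.35 in KO and -0.43 in wildtype. *Ifi214*, an interferon-inducible gene of a family of similar copies, had no count in any KO PBS library and 0.281 to 1.38 CPM after LPS, at least 23.5-fold higher against a floor of 3 counts over the group, and was at 1.12 ± 0.464 CPM (SD, n = 5) after LPS and 0.203 ± 0.171 CPM (SD, n = 4) after PBS in wildtype mice. *Klrd1*, a receptor of NK cells, fell by 2.49 on the log2 scale in KO and by 4.24 in wildtype mice, and the noncoding *Gm42984* fell by 2.72 in KO (3.32 without LPS replicate 3) and had a log2FC of 0.59 in wildtype. All 4 had an adjusted interaction p of 1 in edgeR's quasi-likelihood test and low levels apart from *Rab10os*.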

How the data were processed

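Total RNA of CD11b+ cells was sequenced in 19 libraries, 1 mouse each, and the 10 *Park7* KO libraries are described here. Per the labels and the study's methods, the authors trimmed the reads with Cutadapt, aligned them to GRCm39 with STAR 2.7.9a and deposited raw counts per Ensembl gene. The strand setting of the counts is not given in the sources used here. Gene symbols were matched by Ensembl identifier in GENCODE. The share of ribosomal RNA counts was 0.0567% to 1.03% per KO library.

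The counts were fitted with edgeR 4.0.16 in R 4.3.3 (TMM normalization, filterByExpr with a minimum count of 10 and a minimum total of 15, quasi-likelihood test) over all 19 libraries in 4 groups, with Benjamini-Hochberg adjustment over all genes tested. Called genes had an adjusted p under 0.05 and a log2FC of at least 0.5 in size. The interaction contrast tested the genotype difference. Exact permutation tests of the 15 genes per direction are not given, since choosing genes with no overlap fixes their p. Alternatives were DESeq2 1.42.0, its size factors, other filters and thresholds, the KO libraries alone, a replicate block, leaving out each KO library, and leaving out ribosomal and mitochondrial genes. Intervals cover counting error only.

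The 45 gene lists and 11 marker lists, 855 genes in the former, and the comparison itself were chosen with earlier results of these data known. Genes named were list members, the 15 protein-coding genes per direction with the largest change at a mean of at least 5 CPM and no overlap, the 10 with the smallest p, the 5 of other biotypes, the 5 with the smallest interaction p, and the 10 with the most reads per group. Which list members are named beyond those with the largest change was chosen after their values were seen. Some list members are not reported here by name.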

Additional observations from a re-analysis of the deposited data

Results flagged for a closer look

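In a group of 5 mice, a value was picked out where its gap to the next value was more than 0.71 of the group's range. Chance gives this in about 1 in 20 groups of normally distributed values. That rate does not hold for skewed CPM values or for groups near 0 counts, so it is no yardstick for the number below. Of 174 groups looked at, 18 met this. In LPS replicate 5, *Ccr7* was the highest of its group at 152 CPM, *Chac1* at 10.2 CPM and *Fosb* at 954 CPM. In the other LPS libraries, *Rsad2* was the highest in replicate 3 at 698 CPM, *Cst3* the lowest in replicate 4 at 2767 CPM and *Cxcr3* the lowest in replicate 2 at 0 CPM, and the oligodendrocyte markers summed highest in replicate 1 at 11561 CPM.

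In PBS replicate 4, *Il1rn* was the highest of its group at 3.46 CPM, *Saa3* at 1.73 CPM, *Mpo* at 11.2 CPM, *Marco* at 0.157 CPM and *Mmp3* at 0.0524 CPM. In PBS replicate 1, *Slco1a4* was the highest at 248 CPM, *Cxcl5* at 0.184 CPM and the summed endothelial markers at 1239 CPM. In PBS replicate 2, *Npm1* was the highest at 152 CPM and *Rab32* at 61.2 CPM, and in PBS replicate 3 *Csf3* was the highest at 0.203 CPM. The values of *Marco*, *Mmp3*, *Cxcl5*, *Csf3* and *Cxcr3* rest on at most 4 counts in the library picked out.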

How the results depend on the processing

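The counts of called genes kept within 1.5 times of 3759 higher and 3564 lower under every alternative run but a threshold of 1 on the size of the log2FC, which left 2293 higher and 2224 lower, and 92 of the 142 list members called lower. Leaving out 1 library in turn gave 3475 to 4058 genes called higher and 3253 to 3578 lower, and 3056 of the higher and 2873 of the lower genes were called in every such fit. The genotype difference called 0 genes under each alternative run. Replicate numbers were shared between the treatments, but the deviations of same-numbered libraries correlated at 0.544, 0.154, 0.0265, 0.327 and 0.221 for replicates 1 to 5, and 3 of 5 LPS libraries correlated best with their own number. As replicate 3 stayed under 0.1, the numbers were not taken to pair the mice. A replicate block in the KO libraries alone gave 3517 genes called higher and 3303 lower, with *Actb* (0.61), *Csf1r* (-0.61), *Lrrk2* (-0.97) and *Park7* (1.08) not called and *Gclm* (-0.54), *Pink1* (-0.63) and *Tgfb1* (-0.51) called lower. Removing LPS replicates 1 and 5 together was chosen after seeing the data. The log2FC of the following genes, none of them called with all libraries, changed sign: without LPS replicates 1 and 5, *Btg2* -0.0058, *Fosb* -0.44, *Ftl1* -0.042, *Map1lc3b* -0.40, and with no filter on low counts, *Clec7a* -0.0067, *Map1lc3b* -0.033, and with a minimum of 10 counts in every KO library, *Clec7a* -0.0068, *Map1lc3b* -0.027, and with the replicate number as a block within genotype, *Clec7a* -0.0012, *Fosb* -0.12, *Map1lc3b* -0.13, and with the replicate block in the KO libraries alone, *Fosb* -0.10, *Map1lc3b* -0.11. Over the fits that left out 1 library each, the log2FC ranged across 0 for *Atm* -0.089 to 0.21, *Btg2* -0.14 to 0.35, *C1qa* -0.20 to 0.047, *Clec7a* -0.22 to 0.17, *Ctss* -0.26 to 0.026, *Cxcl14* -0.15 to 1.01, *Fosb* -0.60 to 1.02, *Ftl1* -0.079 to 0.12, *Irgm2* -0.032 to 0.23, *Itgam* -0.038 to 0.21, *Jun* -0.61 to 0.0090, *Ly6g* -0.19 to 0.67, *Map1lc3b* -0.39 to 0.14, *Tab2* -0.12 to 0.011, *Vps35* -0.16 to 0.019, *mt-Co1* -0.015 to 0.29. The cause of these sign changes was not tested. A gene with fewer than 3 counts in a library lies below 0.139 to 0.217 CPM, which limits what can be said of genes near 0 in PBS.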

Other observations

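Genes of other annotated biotypes than protein-coding were described apart. Of 2082 long noncoding RNAs tested, 338 were called higher and 394 lower, against 20.1% called higher and 19% lower of all genes tested. *AW112010*, a noncoding gene known from interferon-treated immune cells, was at 44.4, 55, 65.6, 70.5 and 69.1 CPM after LPS and 5.52, 4.8, 3.91, 4.29 and 3.57 CPM after PBS (log2FC 3.78 (SE 0.39)), and *Snhg4*, the host of small nucleolar RNAs, rose as well (log2FC 3.36). *Gm56557* (5.57), *Gm37498* (3.53) and *Gm38357* (3.48) completed the 5 most raised by the same rule, and *Gm37498* lies within *Slc7a11*, which also rose, so that reads of the 2 may be shared. *Gm57375* (-4.73), *Ighd* (-3.76), *Gm30329* (-3.66), *A830008E24Rik* (-3.55) and *Gm56862* (-3.33) were the 5 most lowered, and *Ighd*, the constant region of immunoglobulin D, was at 0.562, 1.26, 0.897, 0.671 and 0.65 CPM after LPS and 12.9, 13, 10.9, 9.01 and 9.35 CPM after PBS.

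The genes that took the most reads per group were described as well. *Actb*, which encodes β-actin, was at 8877, 9938, 10257, 7420.5 and 10401 CPM after LPS and 7357, 8345, 6400.3, 4739.7 and 4744 CPM after PBS (log2FC 0.57 (SE 0.19), and not called without PBS replicate 4, 0.48, or PBS replicate 5, 0.50, without LPS replicates 1 and 5, 0.55, or in the KO libraries alone, 0.59), *Csf1r* was at 5751, 6741, 7377, 4736 and 7391 CPM after LPS and 10606, 12431, 9792, 8285 and 8144 CPM after PBS, and *Cst3*, which encodes cystatin C, was at 5170.1, 4834, 4755, 2767 and 5245 CPM after LPS and 9157, 10574, 7813, 5242 and 4878 CPM after PBS (log2FC -0.73 (SE 0.23), and -0.71 and not called in the KO libraries alone). *Serinc3* fell by 0.87 on the log2 scale, and *Malat1* (0.21), *Eef1a1* (0.33) and *Enpp2* (-0.81) were not called, although *Eef1a1* was called higher without PBS replicate 2 (0.53).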
